A study of Mus musculus with 29 samples.

Results

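MdC4 was 1 of 6 subtypes into which the authors' deposited cell annotation divided the monocyte-derived cells (MdC) of the mouse brain. A cell was taken as MdC4 where the annotation gave MdC as its parent type and MdC4 as its subtype. The rule found 2039 cells, among 12553 MdC cells, 55268 brain cells and 106977 cells of brain and blood together. The other subtypes were MdC1 with 2947 cells, MdC2 with 2805, MdC3 with 2078, MdC5 with 1467 and MdC6 with 1217. The authors placed the cells in subtypes from their expression, so the genes that set MdC4 apart from the other MdC cells are a description here and were not tested. The comparisons between libraries (days after stroke, sham surgery, age) were tested over libraries.

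Monocytes leave the blood and enter injured brain tissue, where they turn into macrophages. Interferons are secreted proteins that bind receptors on many cells. Their receptors act through Janus kinases and STAT proteins, which together with interferon regulatory factors switch on a large set of genes, many of them antiviral. Type I interferons act mainly through a complex with Stat2 and Irf9 that binds a DNA motif called the interferon-stimulated response element (ISRE). Interferon gamma acts mainly through another motif, the gamma-activated site (GAS).

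Single-cell RNA was measured by Drop-seq, which catches cells in droplets with barcoded beads, in C57BL/6J mice after a stroke, made by blocking the middle cerebral artery for a limited time, or after sham surgery. Young mice were males of 8 to 10 weeks, with 4 brain libraries from sham surgery at day 2, 4 from stroke at day 2 and 4 from stroke at day 14. The older animals, aged 17 to 20 months, contributed 2 brain libraries from sham surgery at day 2 (1 male, 1 female), 3 from stroke at day 2 (1 male, 2 female) and 1 from stroke at day 14 (female). Every brain library was made from 4 to 5 pooled hemispheres and from sorted cells with high CD45, microglia and endothelial cells, all dissociated with papain in the presence of actinomycin D, which blocks transcription. No sham library of day 14 was used here. The libraries are pools, so p-values measure the spread between these pools.

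Brain libraries held 1143 to 5121 cells and 819438 to 5855047 summed counts. In the stroke libraries with at least 20 MdC4 cells, the median MdC4 cell held 433 to 1789 counts, with the lowest value in young day 14 replicate 4. The median mitochondrial share of MdC4 cells was 0.128% to 0.243% in young stroke replicates 1 and 2 of both days and 1.08% to 3.46% in replicates 3 and 4, so replicate number and mitochondrial share moved together. Of the brain cells, 185 carried a barcode that was also found in another brain library, and 9 of these were MdC4 cells. MdC4 cells were found in every stroke library: 258, 152, 312 and 192 in the young day 2 libraries, 232, 123, 186 and 175 in the young day 14 libraries, 17 in the aged day 2 male library, 245 and 123 in the aged day 2 female libraries, and 19 in the aged day 14 library. The young sham libraries held 0, 1, 2 and 1, and the aged sham libraries 0 and 1, so MdC4 expression could not be measured without stroke. Expression was therefore described in 10 libraries, the 8 young stroke libraries and the 2 aged female day 2 libraries.

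Promoters of 4 genes that led MdC4 are shown because the genes were high together and their promoters held the ISRE core. The sequences are the 150 bases before the transcription start from RefSeq (build GRCm38.p6), written 5′ to 3′ on the strand of the gene, with each match to the ISRE core in capitals. Ifit1 is at chr19:34640739-34640888 on the plus strand, Ifit3 at chr19:34583379-34583528 on the plus strand, Rsad2 at chr12:26456453-26456602 on the minus strand and Gbp2 at chr3:142620513-142620662 on the plus strand.
Ifit1: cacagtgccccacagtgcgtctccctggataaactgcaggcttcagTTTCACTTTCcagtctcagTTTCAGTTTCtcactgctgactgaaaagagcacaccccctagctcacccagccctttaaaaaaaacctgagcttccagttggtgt
Ifit3: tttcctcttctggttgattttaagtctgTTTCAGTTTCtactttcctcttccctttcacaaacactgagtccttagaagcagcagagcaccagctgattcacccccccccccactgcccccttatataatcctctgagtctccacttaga
Rsad2: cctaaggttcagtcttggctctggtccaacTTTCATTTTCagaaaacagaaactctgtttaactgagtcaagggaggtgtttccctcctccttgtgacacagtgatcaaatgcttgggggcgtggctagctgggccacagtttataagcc
Gbp2: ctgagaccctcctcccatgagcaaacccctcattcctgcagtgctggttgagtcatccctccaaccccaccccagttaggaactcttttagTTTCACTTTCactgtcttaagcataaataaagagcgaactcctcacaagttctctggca

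The ISRE core was searched as 2 copies of GAAA separated by any 2 bases, on both strands, in the 250 bases before each start, and on the opposite strand it reads as 2 copies of TTTC with the same spacing. The Ifit1 window held 2 matches, and the one nearer the start began 85 bases before it. The Ifit3 window held 2 as well, beginning 156 and 122 bases before the start, and the printed bases hold the nearer one. The single match began 120 bases before the start of Rsad2 and 59 before that of Gbp2. Among the 52 genes at least 2-fold higher in MdC4 in every library (described next), 47 were found in the promoter table and 26 of these held the core, or 55.3%. The share was 4.61% among the genes considered in the same comparison and 3.46% among all 27025 genes of the table. The GAS core, searched as TTCNNNGAA on both strands and counted separately from the ISRE core, was held by 9 of the 47 genes (19.1%), by 6.84% of the genes considered and by 8.13% of all genes. A match is a run of letters and not a measured binding site.

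MdC4 was the subtype with high interferon-response genes. Counts were summed per library over MdC4 cells and over all other MdC cells, scaled to the counts-per-million unit (CPM), and compared within each library as a log2 ratio with 10 CPM added to both values. Of 5791 genes considered (mean of at least 20 CPM in MdC4 or in the other MdC cells), 52 were at least 2-fold higher in MdC4 in all 10 libraries, or 0.898%, and 0 were at least 2-fold lower in all 10, or 0.0%. A ratio above 1 in all 10 libraries was found for 353 genes, or 6.1%. Of a list of 16 interferon-response genes, 14 were at least 2-fold higher and 16 were above a ratio of 1 in every library. The median log2 ratio was 2.75 for this list and -0.10 for all genes considered. This list was chosen with earlier results of these data known, and the authors placed the cells from their expression. Most of the other lists below were drawn up by role after the leading genes were known. The counts of all these lists thus describe MdC4 and support nothing further.

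Rsad2, which encodes viperin, an enzyme that makes a chain-terminating nucleotide, had the following levels in MdC4. It was at 1872, 1877, 1179 and 1657 CPM in the young day 2 libraries, 2455, 1923, 1768 and 2096 CPM in the young day 14 libraries, and 1464 and 1174 CPM in the aged day 2 libraries. In the other MdC cells of the same libraries it lay between 41.8 and 239 CPM. The MdC4 and other MdC values did not overlap, and the mean log2 ratio was 3.76 ± 0.76 (SD, n = 10 libraries). Cmpk2, the neighbouring gene for a mitochondrial nucleotide kinase, lay between 66.5 and 467 CPM in MdC4 and between 3.03 and 34.2 CPM in the other MdC cells.

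Cxcl10 encodes a chemokine that attracts activated T cells. It was at 1568, 1307, 1851 and 2529 CPM in MdC4 of the young day 2 libraries, 2591, 1483, 2208 and 1421 CPM at day 14, and 1719 and 1074 CPM in the aged day 2 libraries. In the other MdC cells it lay between 62.1 and 218 CPM. Each MdC4 value was thus above every value of the other MdC cells, and the mean log2 ratio was 3.49 ± 0.77 (SD, n = 10).

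**Figure D1:**
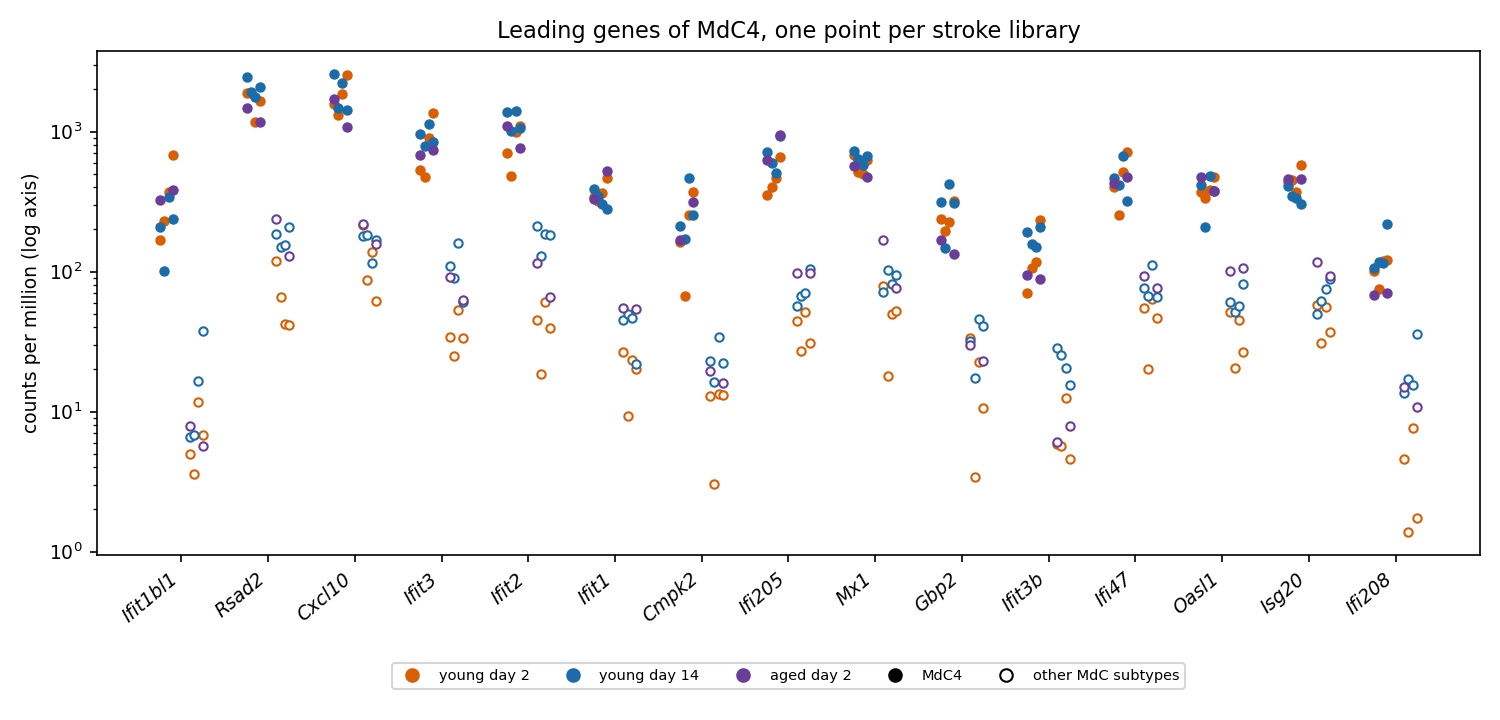
Levels of the 15 leading genes of MdC4 in CPM on a log axis, with 1 point per stroke library, filled for MdC4 cells and open for all other MdC cells of the same library. For Rsad2 the filled points lie between 1174 and 2455 CPM and the open points between 41.8 and 239 CPM, and the other genes show the same order.

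The Ifit genes, whose proteins bind foreign RNA and block its translation, gave the highest family median. Of the Ifit family, 5 of the 5 members considered were at least 2-fold higher in every library, with mean log2 ratios of 3.86 for Ifit1bl1, 3.47 for Ifit3, 3.34 for Ifit2, 3.13 for Ifit1 and 2.70 for Ifit3b. Ifit1 lay between 279 and 521 CPM in MdC4 and between 9.26 and 54.8 CPM in the other MdC cells. These genes are close relatives, and reads that fit several of them could have been shared out in the authors' counting. The Mx family of dynamin-like antiviral GTPases passed with 2 of 2 members, with a mean log2 ratio of 2.89 for Mx1 and 1.82 for Mx2. The guanylate-binding proteins, GTPases that act on intracellular microbes, passed with 4 of 7, led by Gbp2 at 2.87 and Gbp5 at 2.43. The immunity-related GTPases passed with 4 of 7, led by Ifi47 at 2.64, and the Ifi200 family with 9 of 13, led by Ifi205 at 3.10 and Ifi208 at 2.49.

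Of the oligoadenylate synthetase family, which makes a second messenger that activates an RNA-cutting enzyme, Oasl1 passed with a mean log2 ratio of 2.59, and 6 of 6 members considered were above a ratio of 1 in every library. Isg20, an exonuclease, had a mean log2 ratio of 2.53. Isg15, a ubiquitin-like protein that is attached to other proteins, lay between 1908 and 3154 CPM in MdC4 and between 259 and 686 CPM in the other MdC cells, with a mean log2 ratio of 2.41. The Schlafen family passed with 3 of 7 members and the Phf11 family with 3 of 3. Of the Ifitm family of membrane proteins, 0 of 4 passed.

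Upstream of these genes lie the receptors, kinases and transcription factors of the pathway. Of the interferon receptor subunits 0 of 5 passed, and the median log2 ratio was 0.14. Ifnar1, a subunit of the type I receptor, lay between 128 and 216 CPM in MdC4 and between 103 and 210 CPM in the other MdC cells. Of the Janus kinases 0 of 3 passed, with a median of 0.01. Of 9 STAT and IRF transcription factors 2 passed: Irf7, which drives type I interferon genes, with a mean log2 ratio of 1.95, and Stat2, with 1.83. Irf9 was above a ratio of 1 in 9 libraries, with a mean log2 ratio of 0.42.

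Of the nucleic acid sensors 1 of 7 passed, namely Ifih1, the sensor of long double-stranded RNA, with a mean log2 ratio of 1.94. Another 3 sensors were above a ratio of 1 in all 10 libraries without reaching 2-fold in each, with 1.78 for Ddx58, 1.59 for Zbp1 and 1.26 for Dhx58. The median was 1.26 over the 7 sensors and 0.81 over the 9 STAT and IRF factors. Of the feedback inhibitors 1 of 4 passed. It was Usp18, which removes Isg15 from proteins and damps type I receptor signalling, with a mean log2 ratio of 2.44.

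Of the interferon genes, Ifnb1 and Ifng are given here. No Ifna gene was among the genes of the matrices. Ifnb1, the gene of interferon beta, had 21 counts over 914 MdC4 cells of the young day 2 libraries (15.2 CPM) and 3 counts over 716 cells at day 14 (3.14 CPM). By library it was at 33.3, 16.8, 4.37 and 2.76 CPM at day 2, 0, 0, 10.6 and 0 CPM at day 14, and 7.14 and 62.0 CPM in the aged female day 2 libraries. The libraries of a group differed widely, and the days overlapped. All MdC cells together, MdC4 included, held 11.1 CPM in the young day 2 libraries and 4.53 CPM at day 14, microglia 1.86 and 6.78 CPM, and dendritic cells 1.46 and 4.71 CPM. In border-associated macrophages (BAM) it had 8 counts after sham surgery (20.9 CPM), 13 at day 2 (35.4 CPM) and 17 at day 14 (88.1 CPM). Ifnb1 was thus not highest in MdC4 of young mice at either day. In the pooled aged day 2 libraries MdC4 had 10 counts (24.2 CPM). All MdC cells there held 10.9 CPM, dendritic cells 3.24 CPM and microglia 1.75 CPM. BAM had 0 counts there, which allows up to 35.1 CPM. Ifng, the gene of interferon gamma, had 0 whole counts in young MdC4 at both days, which allows up to 2.20 CPM at day 2 and 3.31 CPM at day 14. T cells held 150 CPM of Ifng at day 2 and 71.9 CPM at day 14, and NK cells 255 and 88.9 CPM. Apart from the values given by library, these are pooled over libraries and cover counting error only.

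The summed level of the 16 interferon-response genes separated MdC4 from the other MdC subtypes and from the other brain types, each taken whole. Libraries with at least 20 cells of a type were used. The other brain types were not split into their subtypes, so a subtype of them with a high level would not be seen. In MdC4 of young mice it was 13767 ± 2579 CPM at day 2 and 15477 ± 1342 CPM at day 14 (SD, n = 4 each). The lowest MdC4 library, at 11467 CPM, was above the highest library of any other type, which was the brain granulocytes (code Gran) of 1 day 14 library at 7666 CPM. The next MdC subtype was MdC5, at 3038 ± 215 CPM at day 2 and 4111 ± 141 CPM at day 14 (n = 4 each). Microglia (code Mg) were at 141 ± 14.1 CPM after sham surgery, 1243 ± 613 CPM at day 2 and 1884 ± 535 CPM at day 14 (n = 4 each).

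Blood held a monocyte subtype with a raised sum as well, coded Mo4. Its sum was 4383 CPM in the only sham library with 20 such cells, 2349 and 4789 CPM in 2 libraries at day 2, and between 5292 and 6719 CPM in 3 libraries at day 14. The other blood monocyte subtypes lay below these values. Blood and brain tables were processed separately, so the levels of MdC4 and Mo4 are set side by side without a test.

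**Figure D2:**
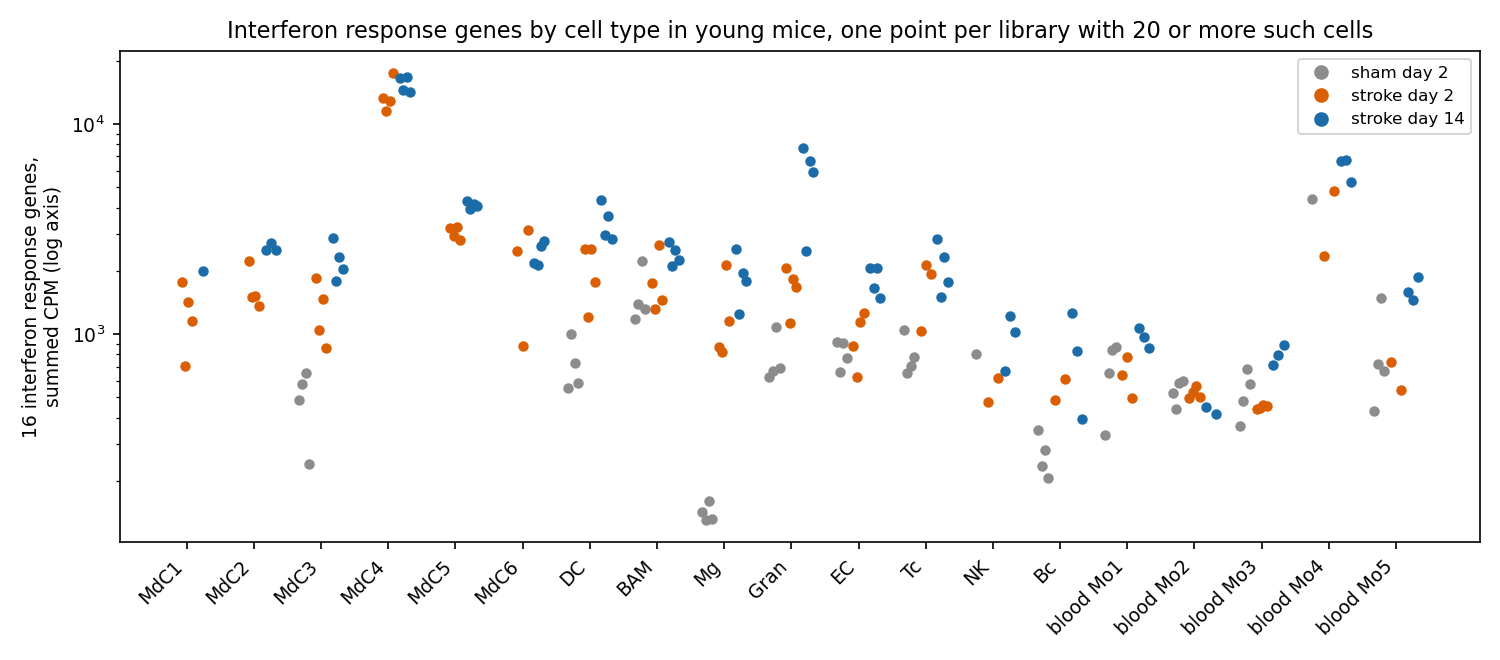
Summed level of 16 interferon-response genes in CPM on a log axis, by cell type in young mice, with 1 point per library holding at least 20 such cells and colours for sham and stroke days. MdC4 lies at 11467 CPM or above in all 8 stroke libraries, and the highest point of another type is 7666 CPM. Brain types other than MdC are shown whole and not by subtype.

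MdC4 held a large part of the interferon-response RNA of the MdC cells. In the 8 young stroke libraries, 46.3% to 67.8% of the counts of the 16 genes in MdC cells came from MdC4, which held 7.81% to 26.9% of all MdC counts. In the 2 aged libraries the values were 66.2% and 42.9% of the list's counts against 35.1% and 14.4% of all counts. Within single cells of at least 500 counts, the median share of a cell's counts on the 16 genes was 0.76% to 1.08% in MdC4 of the day 2 libraries and 0.91% to 1.12% at day 14. It was 0% to 0.34% in the other MdC subtypes of young stroke libraries. More than 1% of a cell's counts fell on the list in 35.1% to 53.3% of MdC4 cells at day 2 and 48.6% to 54.2% at day 14. The same held for 6.56% to 7.77% of MdC5 cells at day 2 and 6.17% to 12.4% at day 14.

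Some genes of classical monocytes were also higher in MdC4. Of 12 classical monocyte genes, 2 passed: Ly6c2, the surface marker of inflammatory monocytes, and Ms4a4c. Ly6c2 lay between 1412 and 5894 CPM in MdC4 and between 222 and 1812 CPM in the other MdC cells, with a mean log2 ratio of 1.74. Plac8 was above a ratio of 1 in all 10 libraries, with a mean log2 ratio of 1.65. Of the 12 genes, 4 were above a ratio of 1 in all 10 libraries, and the median over the 12 was 0.51.

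The lists of mature macrophages had medians below 0. The median log2 ratio was -0.70 over 12 macrophage maturation genes and -0.82 over 16 genes of lipid handling and phagocytosis, and 0 members of either were 2-fold lower in every library. Spp1, the gene of osteopontin, was lower in MdC4 in all 10 libraries, at 1702 to 6357 CPM against 4710 to 28449 CPM, with a mean log2 ratio of -1.60. Pf4, the gene of a chemokine of platelets and macrophages, lay between 0 and 147 CPM in MdC4 and between 41.3 and 765 CPM in the other MdC cells, and was lower in MdC4 in all 10 libraries. Cd36, a scavenger receptor, had a mean log2 ratio of -1.78 and was also lower in all 10. Apoe, which carries lipids, had -0.84 and Gpnmb, a lysosomal membrane protein, -1.33, the latter lower in 9 of the 10.

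Markers of the other cell types that the sort could hold were summed in MdC4. The microglia markers were at 447 ± 99.7 CPM at day 2 and 732 ± 430 CPM at day 14 in MdC4 of young mice, against 595 ± 309 and 1660 ± 973 CPM in the other MdC cells (SD, n = 4 each). Border-associated macrophage markers were at 681 ± 89.7 and 494 ± 99.6 CPM against 1229 ± 326 and 704 ± 58.0 CPM. T, B and NK cell markers stayed below 118 CPM in every young MdC4 library. NK cell markers averaged 25.7 and 34.1 CPM in MdC4 against 6.27 and 11.4 CPM in the other MdC cells, and the defining genes Cd3e, Cd79a and Lyve1 were at or near 0. Endothelial markers were at 91.8 ± 44.6 CPM at day 2 and 294 ± 281 CPM at day 14, of which Ly6c1 made up 19.2 and 209 CPM on average, while Cldn5 was at or near 0. In the other MdC cells the endothelial markers were at 64.4 ± 28.0 and 102 ± 73.4 CPM. Neutrophil markers were at 140 ± 29.5 and 81.2 ± 32.7 CPM in MdC4 against 192 ± 80.9 and 78.2 ± 40.0 CPM.

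By the correlation of log CPM over genes within a library, the type most like MdC4 differed by day. In the young day 2 libraries MdC2 had the highest r in all 4, at 0.940, 0.874, 0.940 and 0.912, beside 0.912, 0.836, 0.939 and 0.894 for MdC5. In the young day 14 libraries MdC5 had the highest in all 4, at 0.921, 0.868, 0.918 and 0.856, while MdC2, with enough cells in 3 of them, had 0.784, 0.771 and 0.713. MdC2 held 427 to 609 cells in the day 2 libraries and 22, 24 and 47 in these 3 day 14 libraries, while MdC5 held 140 to 242 and 115 to 181. The part of cell number in this order was not tested. These correlations are across genes of the same library and share its depth, and genes are not independent replicates.

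MdC4 made up a larger share of MdC cells at day 14 than at day 2. The share was 13.3%, 9.28%, 14.3% and 13.1% in the young day 2 libraries and 28.9%, 25.2%, 24.8% and 20.4% in the young day 14 libraries. The groups did not overlap, and the means were 12.5% ± 2.21 and 24.8% ± 3.47 (SD, n = 4 each). The log2 fold change was 0.99 ± 0.29 (SE), with an adjusted p of 0.00549 by edgeR's quasi-likelihood test with Benjamini-Hochberg adjustment over the 6 subtypes. The exact two-sided permutation test gave p = 0.0286 (adjusted 0.0343), the smallest that 4 against 4 libraries can give.

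The difference between the days was not detected where MdC4 was counted among all cells. The libraries held 1468 to 2180 MdC cells at day 2 and 489 to 857 at day 14, with the sort shared with microglia and endothelial cells. A share of all cells depends on the mix of sorted cells and is not an abundance in the brain. The sort notes of the young libraries give no cell numbers for this mix. Of all cells, MdC4 made up 7.29%, 4.56%, 9.03% and 4.28% at day 2 and 7.78%, 4.65%, 6.98% and 3.42% at day 14. These values overlapped, and the log2 fold change of this share was -0.14 ± 0.43 with an edgeR adjusted p of 0.825. Of leukocytes other than microglia the log2 fold change was 0.27, with an adjusted p of 0.444. Among MdC cells, the shares of MdC1 and MdC2 fell from 31.5% ± 3.39 and 28.8% ± 2.26 at day 2 to 1.91% ± 1.24 and 3.73% ± 1.21 at day 14 (edgeR adjusted p 1.25e-05 each). MdC5 rose from 9.56% ± 1.14 to 22.6% ± 1.43 (adjusted p 0.000675) and MdC6 from 2.84% ± 3.37 to 34.0% ± 1.26 (adjusted p 0.000261). Since shares add up to the whole, a fall of 1 subtype raises the others.

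**Figure D3:**
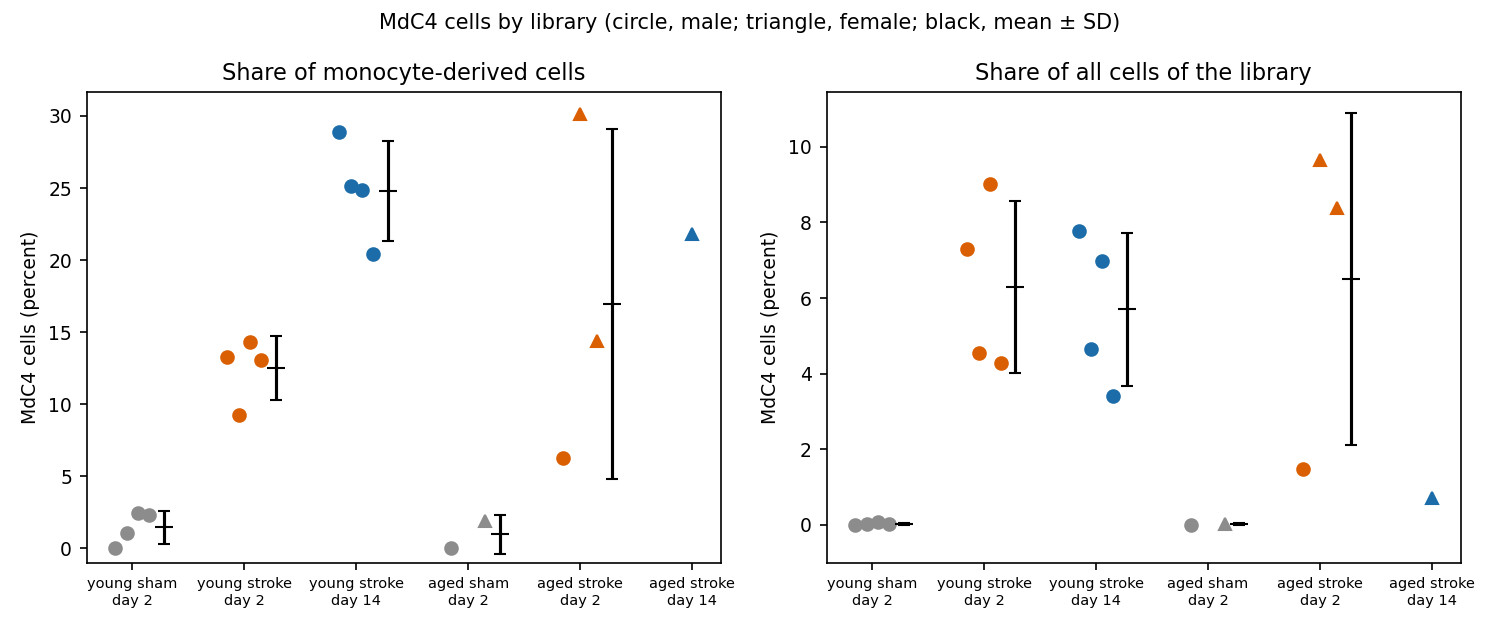
Percent of MdC cells (left) and of all cells of the library (right) that were MdC4, with 1 point per library, circles for males, triangles for females, and mean ± SD in black for groups with more than 1 library. On the left the young day 14 points lie between 20.4% and 28.9% and the young day 2 points between 9.28% and 14.3%, while on the right the 2 groups overlap. The share on the right depends on the mix of sorted cells.

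After sham surgery MdC4 was rare. Its share of MdC cells in the young sham libraries was 0%, 1.06%, 2.44% and 2.33%, each from 43 to 99 MdC cells, and the library without an MdC4 cell allows a share of up to 3.03%. The mean was 1.46% ± 1.15 (SD, n = 4), below every stroke library. The log2 fold change against sham was 3.28 ± 0.51 at day 2 (edgeR adjusted p 4.53e-05) and 4.26 ± 0.49 at day 14 (adjusted p 3.59e-06), and exact permutation gave an adjusted p of 0.0429 for each. Both comparisons used the same sham libraries, and the second combines stroke with the longer time since surgery. The 4 young sham cells were shallow, with a median per library of 224 to 597 counts.

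Of the 3542 genes tested between day 14 and day 2 within MdC4 of young mice, edgeR called 41, or 1.16%, at an adjusted p under 0.05. At day 14, 14 were higher (0.395%) and 27 lower (0.762%). With the replicate number as a block, 237 genes were called, 108 higher and 129 lower. The genes and adjusted p below are from the fit without the block unless stated. The count of 41 depended on single libraries. It was 2 without day 2 replicate 1, 3 without day 2 replicate 4 and 8 without day 2 replicate 3. Without day 14 replicates 4, 2 and 1 it was 12, 13 and 16. Saa3 and Hilpda kept the call without each library in turn. With the mitochondrial class of the library as a term 122 genes were called, and within the low and the high class alone, with 2 libraries per day, 0 and 3.

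Saa3 and Hilpda had the lowest adjusted p of the genes that fell. Saa3, a serum amyloid of the acute phase, was at 206, 660, 351 and 563 CPM in the day 2 libraries and 15.1, 31.9, 11.2 and 0 CPM in the day 14 libraries. All 4 day 2 values were above all day 14 values, with a log2 fold change of -4.82 ± 0.54 (edgeR adjusted p 0.00243). Hilpda, which blocks the breakdown of stored fat and responds to low oxygen, was at 173, 317, 434 and 230 CPM at day 2 and 25.2, 38.3, 18.7 and 34.3 CPM at day 14. Its groups did not overlap either, and the log2 fold change was -3.41 ± 0.40 (adjusted p 0.00243).

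Further genes that fell by the same rule were Rhov (-3.54), Spint1, a protease inhibitor (-3.41), Lmna, the gene of lamins A and C (-2.74), Emp1 (-2.23), Ccl7, a monocyte chemoattractant (-2.14), and Endod1 (-2.10), with edgeR adjusted p between 0.0199 and 0.0367. All 6 depended on single libraries: of 8 fits that each left out 1 library, the call was lost in 8 for Endod1, 7 for Ccl7, 6 for Spint1 and Emp1, and 5 for Rhov and Lmna, with the direction kept in each. Rhov had 22.6 CPM in day 14 replicate 1 and 0 in the other day 14 libraries. Of 6 tested monocyte chemoattractants 2 fell, Ccl2 (-1.44) being the other, and with the replicate block Ccl5 was called as well, higher at day 14 (1.21, edgeR adjusted p 0.0405). Of 5 tested genes of alternative activation and repair 3 fell, among them Arg1, the gene of arginase 1 (-2.02), and the median over the 5 was -1.13 beside 0.04 over all genes tested. Cxcl2, a neutrophil attractant (-1.68), and Hmox1, the enzyme that breaks down heme (-1.30), also fell. Of 13 hypoxia and glycolysis genes 0 were called, and their median was -0.59.

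Genes of MHC class II, which presents peptides to helper T cells, were among those that rose. In young MdC4 the 10 genes of the list summed to 8078 ± 720 CPM at day 2 and 12809 ± 818 CPM at day 14. The other MdC cells were higher without overlap, at 9504 ± 510 and 21061 ± 3589 CPM (SD, n = 4 each). In the aged day 2 libraries the sums were 7407 ± 155 and 7359 ± 1436 CPM (n = 2). Cd74, the invariant chain, was at 939, 823, 1003 and 1077 CPM in young MdC4 at day 2 and 2498, 3602, 2971 and 2991 CPM at day 14. The groups did not overlap, and the log2 fold change was 1.63 ± 0.22 (edgeR adjusted p 0.00735). Of 8 tested genes of the list 4 rose, the others being H2-Ab1 (1.86), H2-Aa (1.74) and H2-Eb1 (2.10), and the list's median was 1.34. H2-DMb1 had 1.05 (adjusted p 0.311) and H2-DMa 0.41 (adjusted p 0.662). With the replicate block 5 of the 8 were called, H2-DMb1 being the fifth (edgeR adjusted p 0.0441). The 4 calls were lost without day 2 replicate 1, where Saa3 and Hilpda alone were called. Dendritic cell markers, 10 in the list, summed to 23.0 to 72.9 CPM in MdC4 at day 2 and 112 to 178 CPM at day 14, and the largest share was Cd209a (7.74 and 60.3 CPM on average). Of their defining genes, Zbtb46, Xcr1 and Clec9a were at 0 at day 2 and below 4 CPM on average at day 14. The part of these markers in the MHC class II result was not tested.

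Other genes that rose were Gatm, an enzyme of creatine synthesis (2.70), Ly6i, a Ly6-family surface protein (2.18), Mylip, a ubiquitin ligase for the LDL receptor (1.97), Arid3a, a DNA-binding protein (1.88), Tmem176b (1.64), Lmo4 (1.43), Rilpl2 (1.38) and Prkcd, a protein kinase C (1.27), with edgeR adjusted p between 0.00932 and 0.0400. In the same 8 fits the call was lost in 7 for Gatm and Lmo4, 6 for Mylip, Arid3a, Tmem176b and Prkcd, 4 for Rilpl2 and 2 for Ly6i, with the direction kept in each. Gatm was at 57.1 to 102 CPM in the day 14 libraries and 0 to 25.7 CPM in the day 2 libraries. The order was the same for Ly6i, at 103 to 284 CPM against 40.0 to 62.0 CPM.

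The interferon-response genes were not called between the days within MdC4. The authors placed cells in MdC4 from their expression, and these genes set it apart, so membership can hold their level alike between days. Whether the response itself changed over time can therefore not be read from these values. Of the 16 genes 0 passed, 11 had a log2 fold change above 0, and the median was 0.13. Isg15 was at 2431, 2555, 1912 and 2928 CPM at day 2 and 2554, 3136, 2234 and 2044 CPM at day 14. The log2 fold change was 0.01 with a 95% interval from -0.51 to 0.52, so changes of up to about that size in either direction remain possible. Rsad2 had 0.31 (-0.19 to 0.80), Cxcl10 0.05 (-0.56 to 0.67) and Irf7 -0.06 (-0.80 to 0.69). These intervals are from the fit without the replicate block. With the block 1 of the 16 genes was called, higher at day 14, and the Isg15 interval was -0.39 to 0.40. Ifit2 then had 0.59 (0.17 to 1.01) and was not called (edgeR adjusted p 0.0838). With DESeq2 the list had 0 calls as well.

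**Figure D4:**
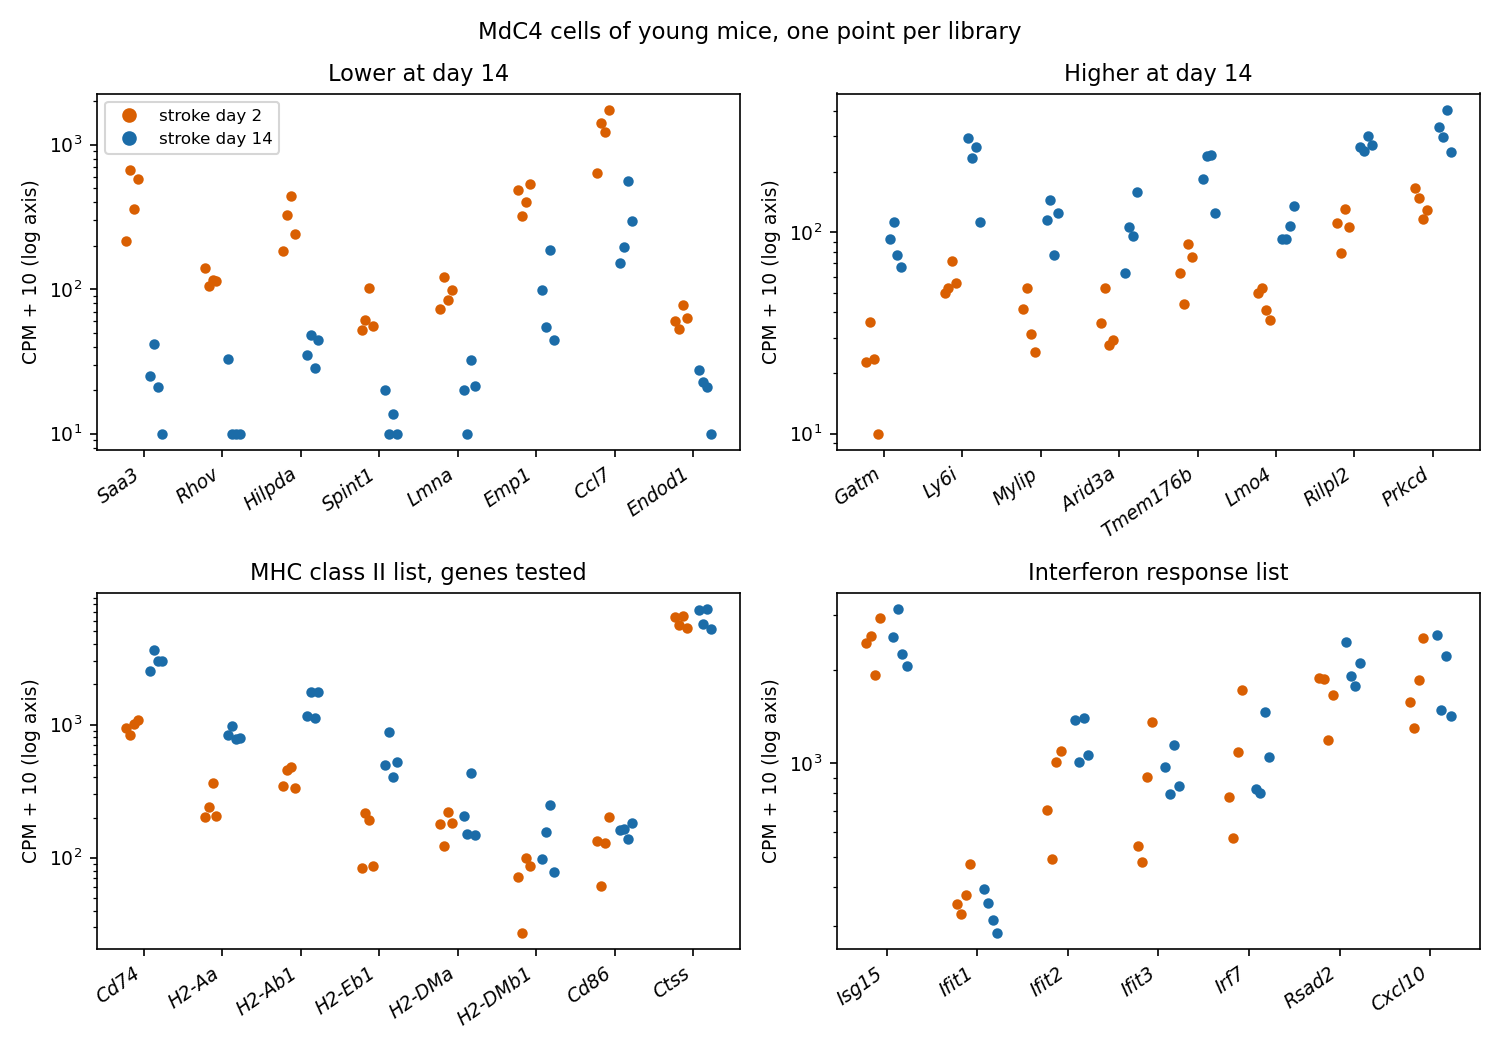
Levels in MdC4 of young mice in CPM plus 10 on a log axis, with 1 point per library, for genes lower at day 14, genes higher at day 14, the tested MHC class II genes and 7 interferon-response genes. Cd74 lies between 823 and 1077 CPM at day 2 and between 2498 and 3602 CPM at day 14, while the days overlap for Isg15, Rsad2 and Cxcl10.

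Whether MdC4 changed over time in another way than the rest of the MdC cells was tested as the difference of the 2 changes, with the library as a block. Of 6454 genes tested edgeR called 244, or 3.78%, with the change in MdC4 above that in the other MdC cells for 108 (1.67%) and below it for 136 (2.11%). The other MdC cells were mostly MdC1, MdC2 and MdC3 at day 2 and mostly MdC5, MdC6 and MdC3 at day 14, so their change combines a change of subtypes with changes inside them, and the 2 cannot be told apart in this sum. Against MdC5 alone, a comparator without this shift, 53 of 4669 genes tested were called, or 1.14%, with 16 above (0.343%) and 37 below (0.792%). MdC5 had the highest median doublet score (Scrublet) of the MdC subtypes in every young stroke library. Its medians were 0.0559 to 0.107, beside 0.0317 to 0.0702 in MdC4. The part of doublets in the comparisons with MdC5 was not tested. Against all other MdC cells the count of 244 became 148 without day 2 replicate 3 and 151 without day 14 replicate 1.

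Several macrophage and lipid genes were called with a change in MdC4 below that in the other MdC cells. Apoe went from 9705 ± 1580 CPM at day 2 to 18077 ± 4589 CPM at day 14 in MdC4 and from 12619 ± 4345 to 57668 ± 9510 CPM in the other MdC cells (SD, n = 4 libraries each). The difference of the log2 changes was -1.44 ± 0.14 (edgeR adjusted p 1.35e-08), and it was -1.34 against MdC5 alone (adjusted p 1.05e-07). Gpnmb was at 342 ± 141 and 410 ± 124 CPM in MdC4 and at 539 ± 158 and 2352 ± 538 CPM in the other MdC cells, a difference of -1.97 ± 0.22 (adjusted p 1.94e-07). Against MdC5 alone the Gpnmb difference was -0.72 and not called (adjusted p 0.316). Of 12 macrophage maturation genes 7 were called below, with a median difference of -1.06 beside 0.01 over all genes, and of 15 tested lipid handling genes 6 were called below, with a median of -0.81. Against MdC5 alone 3 of 12 and 3 of 13 were called below, with 0 above in either list. Of 7 tested microglia markers 1 was called below and 6 had a difference below 0, with a median of -0.80 and the sums given above, and their part in the macrophage and lipid result was not tested. Ms4a7, a marker of brain-infiltrating and border macrophages, had -1.59 and -1.36 against MdC5 alone, both called.

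Of 12 classical monocyte genes 9 were called with a change in MdC4 above that in the other MdC cells, with a median difference of 0.90. Against MdC5 alone 2 were called above and 2 below, with a median of 0.09. S100a4, a calcium-binding protein of motile cells, was at 1822 ± 584 CPM at day 2 and 1268 ± 486 CPM at day 14 in MdC4 and at 2006 ± 665 and 540 ± 205 CPM in the other MdC cells. Its difference was 1.34 ± 0.15 (edgeR adjusted p 1.56e-07), and 0.61 against MdC5 alone (adjusted p 0.0216). Outside this list, Ifitm6 had a difference of 1.63 and was called against MdC5 as well, at 1.34. Uck2, a pyrimidine nucleoside kinase, had 2.09 and was called against MdC5, at 1.85.

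Other genes with a difference above 0 were Arhgap26 (1.74), Hopx (1.69), Il6, the gene of interleukin 6 (1.35), and Vps37b (1.34). Against MdC5 the difference was 0.76 for Arhgap26, 0.93 for Hopx, -0.01 for Il6 and 1.58 for Vps37b (adjusted p 0.116), none of them called by edgeR. The Il6 call was lost in 7 of 8 fits that left out 1 library. The Vps37b call was lost in 4 of these 8 (without day 2 replicate 3 and day 14 replicates 2, 3 and 4), and with DESeq2 (adjusted p 0.0739). Below 0, the named genes beside Gpnmb were Il18bp, which neutralises interleukin 18 (-3.39), Fabp3, a fatty acid carrier (-2.08), Slc37a2 (-1.94), Fblim1 (-1.85), Dnmt3a, a DNA methyltransferase (-1.79), Ifi208 (-1.76) and Lgals3bp (-1.63). Il18bp was at 38.4 ± 24.2 and 34.7 ± 15.9 CPM in MdC4 and went from 10.9 ± 4.98 to 96.1 ± 36.4 CPM in the other MdC cells, and it was also called against MdC5, at -2.86. Against MdC5 the difference was -1.50 for Slc37a2 (adjusted p 0.0598), -0.77 for Ifi208, -0.36 for Dnmt3a and -0.19 for Lgals3bp, none of them called by edgeR, and Fabp3 and Fblim1 were not tested there. The Dnmt3a call was lost without day 2 replicate 1 (-1.25), and the Fabp3 and Fblim1 calls without day 2 replicate 3 (-1.56 and -1.63).

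Of the 16 interferon-response genes 8 were called with a change in MdC4 below that in the other MdC cells and 0 above it, with a median of -0.77. Against MdC5 alone 1 was called below and 0 above, with a median of -0.33. These genes set MdC4 apart, so membership limits their change in MdC4 here as well. Ifit2 was at 816 ± 280 and 1202 ± 204 CPM in MdC4 and at 40.8 ± 17.4 and 176 ± 34.0 CPM in the other MdC cells, with MdC4 higher at both days. The difference was -1.58 ± 0.17 (edgeR adjusted p 1.17e-07). Against MdC5 alone the Ifit2 difference was 0.13 (adjusted p 0.929), that of Ifit1 0.13, that of Ifit3 0.07 and that of Rsad2 -0.09, none of them called. Irf7 was called in both, at -1.33 and -0.87. Of 8 tested MHC class II genes 0 were called above the other MdC cells and 1 below, with a median difference of 0.10. Against MdC5 alone 4 of 9 were called above and 0 below, with a median of 0.74. Cd74 had a difference of -0.12 from the other MdC cells (95% interval -0.39 to 0.15, not called) and 0.86 from MdC5 alone (edgeR adjusted p 0.000111).

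**Figure D5:**
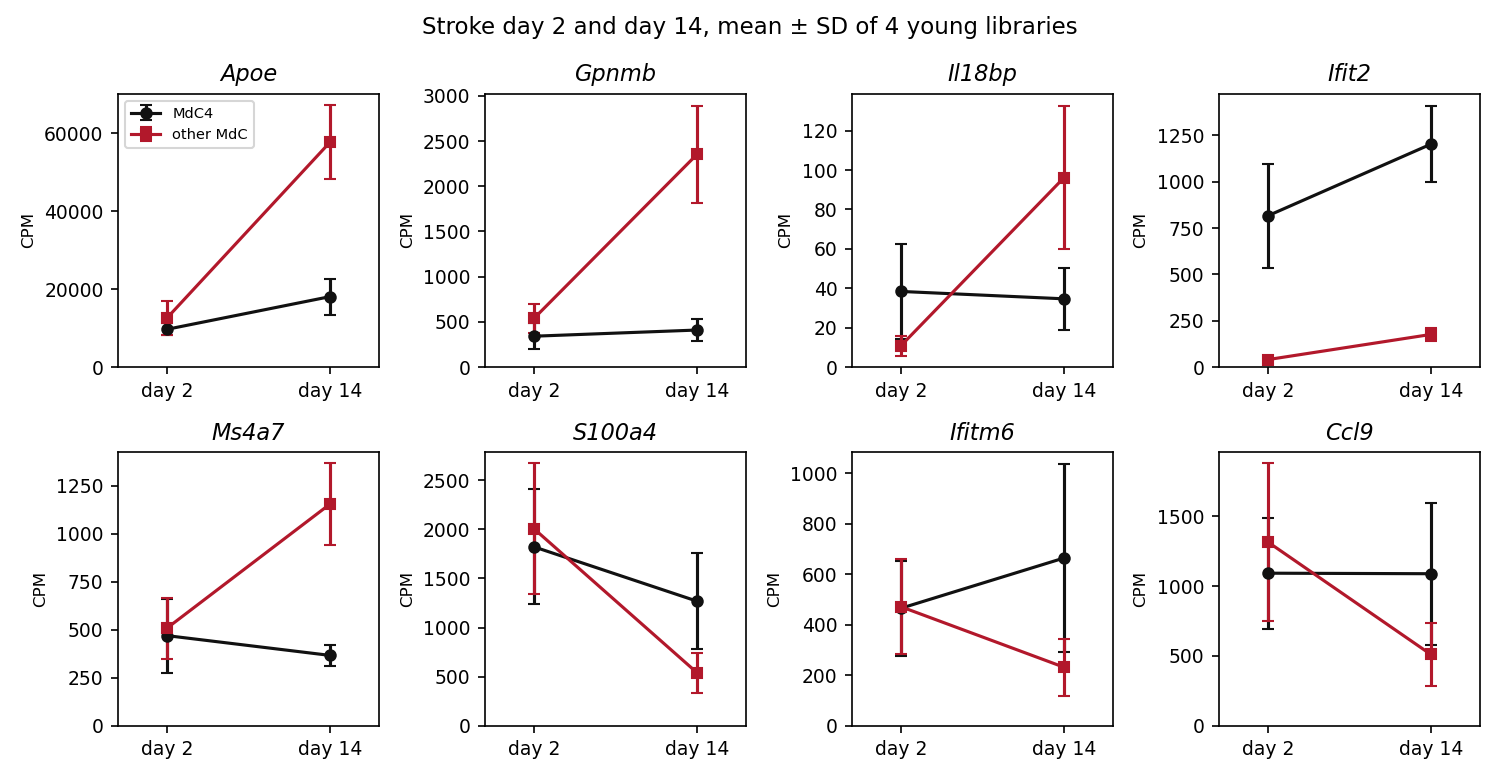
Levels of 8 genes in CPM at day 2 and day 14 after stroke, as mean ± SD of 4 young libraries, for MdC4 and for all other MdC cells. Apoe reaches 18077 CPM in MdC4 and 57668 CPM in the other MdC cells at day 14, while S100a4 is at 1268 CPM in MdC4 and 540 CPM in the others.

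In aged mice the MdC4 share of MdC cells at day 2 was 6.27% in the male library and 30.1% and 14.4% in the female libraries. The young day 2 libraries lay between these values, at 9.28% to 14.3%. The mean was 16.9% ± 12.1 (SD, n = 3), the log2 fold change against young mice was 0.46 ± 0.47 (edgeR adjusted p 0.581), and exact permutation gave p = 0.629. Without the aged female replicate 1 the fold change was -0.24. MdC4 expression was compared between the 2 aged female libraries and the 4 young male libraries of day 2, so age and sex cannot be told apart in it. The aged matrices held 27514 genes and the young brain matrices 19704. The smallest cell held 134 and 129 counts in the aged female day 2 libraries and 150 to 153 in the young day 2 libraries. Age can therefore not be told apart from these differences between the matrices either, in shares or in expression.

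Of 3992 genes tested between aged and young MdC4 at day 2, edgeR called 1, or 0.0251%, and 126 had an unadjusted p under 0.05. The called gene was Eif2s3y, a gene of the Y chromosome, at 101, 85.8, 108 and 103 CPM in the young male libraries and 0 in both aged female libraries, at least 13.5-fold lower by a limit of 3 counts over the group. Its edgeR call was lost in each of 6 fits that left out 1 library. DESeq2 did not call it (adjusted p 0.0941) and called 1 other gene, the monocyte chemoattractant Ccl12, at 816 and 1502 CPM in the aged libraries and 109, 240, 188 and 199 CPM in the young ones (log2 fold change 2.71, DESeq2 adjusted p 1.22e-05, edgeR adjusted p 0.0715). Of the 16 interferon-response genes 0 were called, with a median log2 fold change of -0.16. Membership in MdC4 depends on expression, which limits this comparison of the 16 genes too. Their summed level in MdC4 was 12636 ± 298 CPM in the 2 aged libraries, inside the range of the young day 2 libraries, 11467 to 17454 CPM. In the other MdC cells the sum was 2787 and 3548 CPM in the aged libraries and 1129 to 2142 CPM in the young ones. These values of the other MdC cells did not overlap between the ages, and the difference was not tested. Of 6 monocyte chemoattractants tested by edgeR 0 were called, with a median of 0.74, while DESeq2 called Ccl12 as given above. Neutrophil markers also differed between these groups, with a sum of 580 and 372 CPM in the aged MdC4 libraries and 120, 128, 131 and 184 CPM in the young ones, without overlap. Of the 10 markers 3 were tested, 0 were called, and their median log2 fold change was 1.54. The part of these markers in the comparison of ages was not tested.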

How the data were processed

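Brain and blood libraries were made by Drop-seq, and MdC4 cells were taken from the cell annotation that the authors deposited. The matrices hold expected counts per gene and cell as the authors deposited them. They are not whole numbers, and the step that made them so is not given in the sources used here. The annotation's detected genes and total counts per cell, as deposited, matched the matrices, and its mitochondrial percent was used as the authors gave it. Seurat and the mouse build mm10 are named in the submitters' processing notes. Members and gene lists were chosen with earlier results of these data known, and the role lists of the interferon pathway after the leading genes were seen.

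Expected counts were summed per library over MdC4 and over the other MdC cells, and rounded, for libraries with at least 20 MdC4 cells. Libraries were compared with edgeR 4.0.16 (TMM scaling, filterByExpr, quasi-likelihood test, Benjamini-Hochberg adjustment over all genes tested, threshold 0.05) in R 4.3.3. Shares of the 6 subtypes were compared with edgeR and with exact permutation tests. DESeq2 1.42.0 was an alternative. MdC4 was set against the other MdC cells without a test, with 10 CPM added before the ratio. Genes named were the 15 highest mean ratios among those at least 2-fold higher in every library (mean of at least 100 CPM), and for contrasts up to 8 called genes per direction with the largest change, no overlap between the groups and a mean of at least 20 CPM, leaving out predicted, mitochondrial, ribosomal protein, haemoglobin and immune receptor genes and genes whose level in some other brain type (with 500 cells or more) exceeded 10 times that in MdC4. Genes of the fixed lists were named as well, and others with their values seen. A few genes that these rules reach are not reported here. Doublets were scored with Scrublet, which marked under 0.5% of cells and so did not work. The scripts were tested on simulated data. The fit of the days recovered 17.0% of genes with a true log2 change of 1 and 87.4% with 2. The fit of ages recovered 3.33% and 54.2%, and the difference of changes 48.9% and 89.5%. False calls numbered 11, 3 and 4, and the fit of the days had 88 and 95 genes with a true change of 1 and 2. A gene not called may thus have changed, and some called genes may be false calls.

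Same-numbered young stroke libraries of the 2 days deviated together, with correlations of 0.361, 0.487, 0.648 and 0.194, while pairs with different numbers ran from -0.486 to 0.320 and day 2 replicate 4 correlated more with day 14 replicate 3 (0.270) than with replicate 4. Every same-numbered pair was over 0.1, so fits with the number as a block were run as well, and their count is given beside the main one. The main fits between the days, with their named genes, adjusted p and intervals, left this block out unless stated. The labels do not say what a number shares. Libraries with few cells have wide counting error. Limits from a count of 0 cover counting error only, while intervals of fold changes are from the edgeR fits and include the spread between libraries.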

Additional observations from a re-analysis of the deposited data

Results flagged for a closer look

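The change between day 2 and day 14 differed between MdC4 and the other MdC cells for 244 genes by edgeR's test of the difference itself, and 15 of those named by the rule are given here. The differences of log2 changes were above 0 for Uck2 (2.09), Arhgap26 (1.74), Hopx (1.69), Ifitm6 (1.63), Il6 (1.35), S100a4 (1.34) and Vps37b (1.34). They were below 0 for Il18bp (-3.39), Fabp3 (-2.08), Gpnmb (-1.97), Slc37a2 (-1.94), Fblim1 (-1.85), Dnmt3a (-1.79), Ifi208 (-1.76) and Lgals3bp (-1.63).

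In 2 of 73 groups of 4 libraries 1 value stood far from the others, where chance gives about 1 in 20 groups. Ifi208 in MdC4 reached 219.96 CPM in 1 young day 14 library, and Rhov had 22.6 CPM in 1 young day 14 library and 0 in the others.

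The aged day 14 library, which entered no comparison because its group has 1 library, held 19 MdC4 cells among 87 MdC cells, a share of 21.8%.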

How the results depend on the processing

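The fits by mitochondrial class, the fit against MdC5 alone and the removal of the 5% highest Scrublet scores were chosen after seeing the data. The count of genes 2-fold lower in MdC4 in every library was 1 with 1 CPM added, and a 1.5-fold rule gave 110 higher and 5 lower. The log2 fold change of the MdC4 share from day 2 to day 14 was 0.27 among leukocytes other than microglia and -0.14 among all cells. Leaving out 1 library gave 0.87 to 1.07 for this share, 2.75 to 3.84 for day 2 against sham, 3.74 to 4.83 for day 14 against sham and -0.24 to 0.83 for aged against young. With the replicate block the 3 young shares were 1.00, 3.27 and 4.28, and the block changed no other call on shares. Genes called between the days numbered 100 with DESeq2, 105 with no filter on low counts, 237 with the replicate block, 122 with the mitochondrial class, 0 and 3 within the low and the high class, and 2 to 37 without 1 library. Aged against young gave 1 in the other direction with DESeq2, 7 with no filter, 0 with libraries of at least 10 cells, and 0 without 1 library. The difference of changes gave 130 genes with DESeq2, 53 against MdC5 alone and 148 to 267 without 1 library, and Il6 was at -0.014 against MdC5 alone. The cause was not tested. A male-only comparison of ages was not run, since the aged male library held 17 MdC4 cells, nor was expression after stroke against sham. Depth limits genes of few counts.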
